A study of Mus musculus with 2 samples.

Results

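RNA polymerase II (Pol II) was mapped over 2 stretches of the mouse genome chosen to span the clusters of replication-dependent histone genes. They are chr13:21500001-24000000 and chr3:96000001-96500000 in the build mm8, 2.5 Mb and 0.5 Mb long. Tiling both from the first base of the chromosome in 500 bp windows gave 6000 windows, 5000 on chromosome 13 and 1000 on chromosome 3, out of 5261453 in the genome. The rule uses position only and no measured value. No mm8 gene annotation was used here, so neither the stretches nor any peak in them could be placed on a histone gene, and their name was not checked against gene positions. Below, histone windows, summits and profiles are those inside the stretches, whichever gene they lie on.

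Both samples were chromatin immunoprecipitations from mouse embryonic fibroblasts, cells of connective tissue taken from embryos and grown in DMEM with 10% serum. The antibody was 8WG16, a monoclonal that recognises the C-terminal repeats of the largest Pol II subunit. The labels give 1 group, with no treatment, genotype, strain or age, and do not say whether the 2 libraries came from separate cultures, so the spread between them may be technical. The gel slice of amplified DNA spanned 150 to 350 bp in library 1 but ended at 300 bp in library 2, and this slice, the sequencing run and the sample cannot be told apart. In these bulk samples, fewer cells with Pol II at a site and less Pol II per cell cannot be told apart either.

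Replication-dependent histone genes encode the core histones H2A, H2B, H3 and H4, which form the nucleosome, and the linker histone H1, which binds the DNA between nucleosomes. Dividing cells transcribe them mainly in S phase, when new DNA is packed. They are short, mostly without introns, and their mRNAs end in a stem-loop rather than a poly(A) tail. Each protein is made from many gene copies that lie close together, with a large cluster on mouse chromosome 13 and a smaller one on chromosome 3. Copies that are nearly identical cannot be separated by short reads, which is why reads that fit 1 site and reads that fit 2 sites were counted apart.

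How alike such copies can be was read from RefSeq promoters of GRCm38.p6, a later build, whose coordinates were not carried over. The table named 63 such genes, 53 on chromosome 13 and 10 on chromosome 3: 6 of H1, 17 of H2A, 16 of H2B, 12 of H3 and 12 of H4. Promoters, from 250 bases before to 50 bases after the start, were found for 58 of the genes, 59 in all. Words of 36 bases, the read length, were compared between promoters that do not overlap. In 13 of the 59 promoters at least 1 word also stood in the promoter of another gene, and in 9 over 50% of the words did. The 150 bases before the start are shown for 3 pairs, from nearly all bases in shared words to only part of them. Capitals mark bases inside a 36-base word that another gene's promoter also holds. Such a word, read without error, cannot be placed at 1 site.
H3c15: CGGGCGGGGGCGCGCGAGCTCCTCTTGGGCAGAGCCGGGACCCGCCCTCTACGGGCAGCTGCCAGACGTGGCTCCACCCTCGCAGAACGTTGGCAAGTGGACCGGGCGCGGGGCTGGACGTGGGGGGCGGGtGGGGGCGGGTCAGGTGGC
H3c14: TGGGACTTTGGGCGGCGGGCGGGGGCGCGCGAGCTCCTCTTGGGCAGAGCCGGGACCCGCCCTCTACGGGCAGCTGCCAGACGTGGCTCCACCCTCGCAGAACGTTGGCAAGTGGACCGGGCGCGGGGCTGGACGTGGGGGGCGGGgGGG
H4c17: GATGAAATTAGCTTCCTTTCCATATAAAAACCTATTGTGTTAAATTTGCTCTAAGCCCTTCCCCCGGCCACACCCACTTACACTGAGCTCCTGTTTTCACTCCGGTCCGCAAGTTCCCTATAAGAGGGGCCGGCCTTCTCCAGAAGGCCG
H4c18: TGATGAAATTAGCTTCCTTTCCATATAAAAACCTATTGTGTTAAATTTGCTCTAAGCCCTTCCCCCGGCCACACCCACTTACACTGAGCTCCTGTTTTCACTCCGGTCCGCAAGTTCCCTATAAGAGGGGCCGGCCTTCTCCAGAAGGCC
H4c11: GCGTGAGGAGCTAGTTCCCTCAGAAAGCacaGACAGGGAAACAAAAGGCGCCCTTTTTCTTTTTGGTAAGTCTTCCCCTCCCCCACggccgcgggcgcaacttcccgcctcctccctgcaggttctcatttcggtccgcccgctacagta
H4c12: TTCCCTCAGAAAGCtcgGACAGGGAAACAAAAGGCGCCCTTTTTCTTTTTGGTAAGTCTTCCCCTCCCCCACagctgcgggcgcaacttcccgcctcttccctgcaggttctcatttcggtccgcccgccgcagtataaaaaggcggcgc
The H3 genes H3c15 and H3c14 lie on opposite strands of chromosome 3 and shared 80.8% of the words in their promoters. The H4 genes H4c17 and H4c18, on opposite strands of chromosome 13, had 94.3% of their words elsewhere, nearly all of them in each other. H4c11 and H4c12 shared 21.9%, in the capital stretches farther from the start. Their lower-case stretches are also largely alike, but scattered mismatches there break the exact words. Exact words thus understate how alike this pair is, and the alignment allowed mismatches. Between H3c15 and H3c14 the table lists the H2A genes H2ac19 and H2ac18, which shared 69.4% of their promoter words. The other 3 promoters with over 50% of words shared were those of H2bc23, H2ac23 and H2ac24. None of the 6 H1 promoters shared a word.

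The promoters also differed by class in short motifs, searched on both strands of the 300 bases. The CCAAT box (CCAAT) was in all promoters of H1 (6), H2A (17), H2B (15) and H3 (10) genes and in 3 of 11 H4 promoters, against 37.4% of 32851 promoters in the table. The TATA box letters (TATAAA) stood in 34 of 59, or 57.6%, against 13.6% of all. The octamer (ATTTGCAT) was in 6 of 17 H2A and 7 of 15 H2B promoters and in none of the other classes, against 1.74% of all. Paired H2A and H2B genes accounted for 18 promoters that overlap another histone promoter. The overlapping promoters hold the same letters, so these counts are not independent.

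Sequencing left 17548967 reads placed at 1 site in library 1 and 10941174 in library 2 after reads of the same start and strand were counted as 1. Levels are given as reads per 1000000 of these (RPM). Background windows averaged 3.41 reads (library 1) and 1.29 reads (library 2), and a window needed 12 and 7 reads to be called. Each library was tested on its own, by a one-sided exact Poisson test, and p-values were adjusted by the Benjamini-Hochberg method over 4308660 windows that held a read, with a threshold of 0.01. In the histone stretches 4432 windows held a read, and 1568 held none in either library.

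Jointly called windows were more frequent in both stretches than over the genome. The histone windows received 27141 reads, or 0.155% of library 1 (Wilson 95% interval 0.153 to 0.157), and 22342 reads, or 0.204% of library 2 (0.202 to 0.207). These intervals cover counting error only. Of the 4432 windows tested, 305 (6.88%) were called in both libraries, against 2.9% of windows over the genome. Library 1 alone called 318 (7.18%, against 3.41%) and library 2 alone 614 (13.9%, against 9.02%). The shorter stretch was the denser: on chromosome 3, 95 of 866 tested windows (11%) were called in both, and on chromosome 13, 210 of 3566 (5.89%). Library 2 alone called 30.1% of the tested windows on chromosome 3 but 9.90% on chromosome 13, close to its genome share. Windows called in both held 50.3% of the reads of the histone stretches in library 1 and 64.0% in library 2, where the genome had 17.3% and 28.5%. Against the larger of the genome background and the mean of the surrounding 50 kb, 156 windows (3.52%) were called in both, against 0.614% over the genome.

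The calls stood in a few blocks. Of 30 bins of 100 kb, 15 had no window called in both, all on chromosome 13, and the 5 fullest held 207 of the 305 calls (67.9%). The fullest, chr13:23500001-23600000, held 56 calls with 207 RPM in library 1 and 336 RPM in library 2. The next, chr13:23700001-23800000, had 46 calls with 180 and 291 RPM. On chromosome 3 the fullest was chr3:96300001-96400000, with 39 calls and 161 and 274 RPM. In all 3 bins library 2 gave the higher level.

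**Figure D1:**
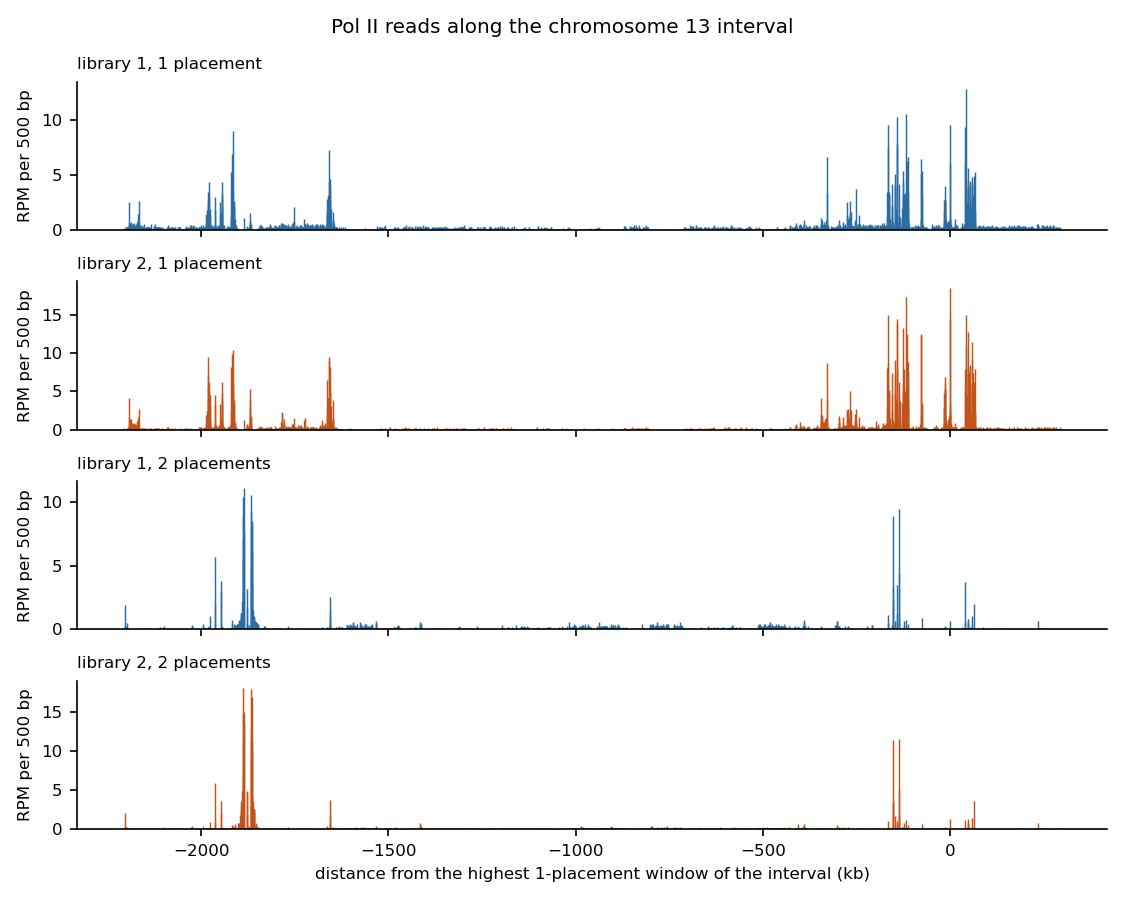
RPM in each 500 bp window of the chromosome 13 stretch, against distance in kb from its highest 1-placement window. The upper rows plot reads placed at 1 site and the lower rows reads placed at 2 sites, for library 1 and library 2. Peaks form 2 groups with 1.3005 Mb without a jointly called window between them, and the tallest 2-placement peaks stand where 1-placement reads are few.

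Between the 2 groups of peaks on chromosome 13 lay chr13:22059001-23359500, 1.3005 Mb in which no window was called in both libraries. Library 1 by itself called 1 window there and library 2 called 2. Of its 2601 windows, 45.1% held no 1-placement read in either library. The tested windows held 2.09 reads on average in library 1 and 0.591 in library 2, both under the background of their library. Its 2-placement alignments were spread thinly and made up 47.3% of all alignments there in library 1 and 44.2% in library 2. That was 37.1% and 14.7% of the 2-placement alignments of the chromosome 13 stretch.

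The gene order in the RefSeq table is given here for background, since the gap could not be placed on it. Without another kind of protein-coding gene between them, the table lists runs of 17, 5, 20, 9 and 2 histone genes on chromosome 13 and 1 run of 10 on chromosome 3. Between the chromosome 13 runs, in order, stand 4, 41, 1 and 5 other protein-coding genes. The table also lists 31 tRNA genes after the first run and 46 after the second. Between the run of 5, which ends with H2bc11, and the run of 20, which begins with H4c8, it lists 75 genes and pseudogenes of the Vmn1r family. These encode pheromone receptors of sensory neurons in the vomeronasal organ.

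**Figure D2:**
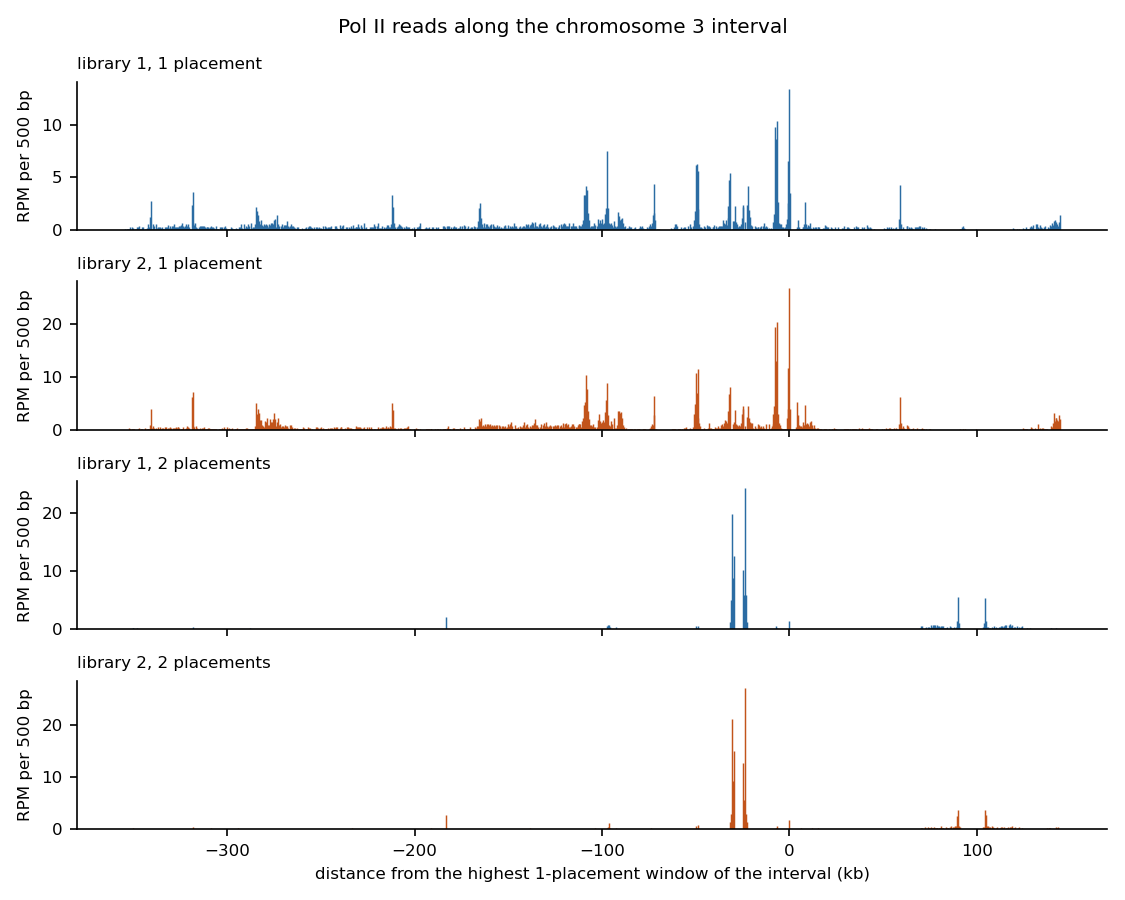
RPM in each 500 bp window of the chromosome 3 stretch, against distance in kb from its highest 1-placement window, with rows as for chromosome 13. The highest 1-placement window has 13.5 RPM in library 1 and 26.9 RPM in library 2, and the tallest 2-placement peaks, 2 windows of 19.8 and 24.3 RPM in library 1 and of 21.3 and 27.2 RPM in library 2, lie apart from it.

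Joining called windows that were no more than 1 window apart gave 79 regions, 51 on chromosome 13 and 28 on chromosome 3. That is 26.3 regions per Mb, against 16.1 over the genome, or 20.4 on chromosome 13 and 56.0 on chromosome 3. The regions covered 161.5 kb. Their median width was 1500 bp, against 500 bp for 42358 regions of the genome. Only 26 of 79 (32.9%) were 1 window wide, against 51.4%, and 25 (31.6%) were at least 3 kb wide, against 13%. At the wide end the difference shrank: 8 (10.1%) reached 5 kb, against 5.86%, and none exceeded 10 kb, whereas the widest region of the genome was 158 kb. The gap from 1 region to the next had a median of 5.0 kb both in the histone stretches and in the genome.

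Read levels set the regions further apart than their width. The median region held 7.15 RPM, against 1.70 RPM over the genome, and 34 regions (43.0%) held at least 10 RPM, against 12%. At least 20 RPM was reached by 20 regions (25.3%), against 4.53%. The levels ranged from 0.662 to 90.8 RPM. The 10 highest regions, 7 on chromosome 13 and 3 on chromosome 3, held 42.2% of the region reads in library 1 and 43.4% in library 2.

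The highest and widest region was chr13:23746001-23756000, 10 kb wide. It held 1200 reads (68.4 RPM) in library 1 and 1239 reads (113 RPM) in library 2, a mean of 90.8 ± 31.7 RPM (SD, n = 2). With 3 summits it also had more peaks than any other region of the stretches, and it ranked 210 by level in the genome. The second, chr13:23588501-23594000, held 36.1 and 70.3 RPM in 5.5 kb (mean 53.2 ± 24.2, SD, n = 2). Next came chr13:23537501-23544500 with 40.1 and 60.2 RPM in 7.0 kb (50.2 ± 14.2, SD, n = 2). These levels lie within the spread of the libraries, so the order of these last 2 regions is not resolved.

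On chromosome 3 the highest region, chr3:96346501-96350000, held 34.5 and 64.7 RPM in 3.5 kb (49.6 ± 21.3, SD, n = 2). Its neighbour chr3:96353501-96356000 held 27.2 and 48.6 RPM in 2.5 kb. Per kb these 2 were the densest of the 10 named by level, at 14.2 and 15.2 RPM per kb, against 9.08 RPM per kb in the widest region. The next on this chromosome, chr3:96304001-96307000, held 22.9 and 39.5 RPM.

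The other 4 of the 10 lay on chromosome 13. chr13:22046001-22052000, separated from the long gap by a weaker region (3.82 and 7.31 RPM), held 32.3 and 50.2 RPM in 6.0 kb. chr13:23562001-23565000 held 29.9 and 45.5 RPM. chr13:21722001-21727000 held 22.8 and 44.3 RPM in 5.0 kb. chr13:23703501-23706500 held 19.3 and 42.4 RPM. All 10 were higher in library 2, by 1.5 to 2.2 times, where 80.5% of the genome's regions were also higher. They stood 11.7 to 28.0 times over the background in library 1 and 35.4 to 82.4 times in library 2.

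By width, 2 more regions shared the fourth place with 5.5 kb: chr3:96253001-96258500 with 18.7 and 32.8 RPM, and chr13:23689501-23695000 with 20.7 and 38.9 RPM. Both held fewer reads than narrower regions such as chr3:96346501-96350000. Width and level therefore did not rank the regions alike.

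Across the 79 regions the levels of the libraries followed each other closely (Pearson r = 0.97 on the log2 scale, Spearman rho = 0.97, n = 79 regions). The regions share both libraries, so this is a description of these regions. Library 2 was higher in 72 of 79 (91.1%), against 80.5% of regions over the genome. The median ratio was 1.60, against 1.37 over the genome. Of the 7 regions higher in library 1, 5 were 1 window wide, and none exceeded 4.98 RPM.

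**Figure D3:**
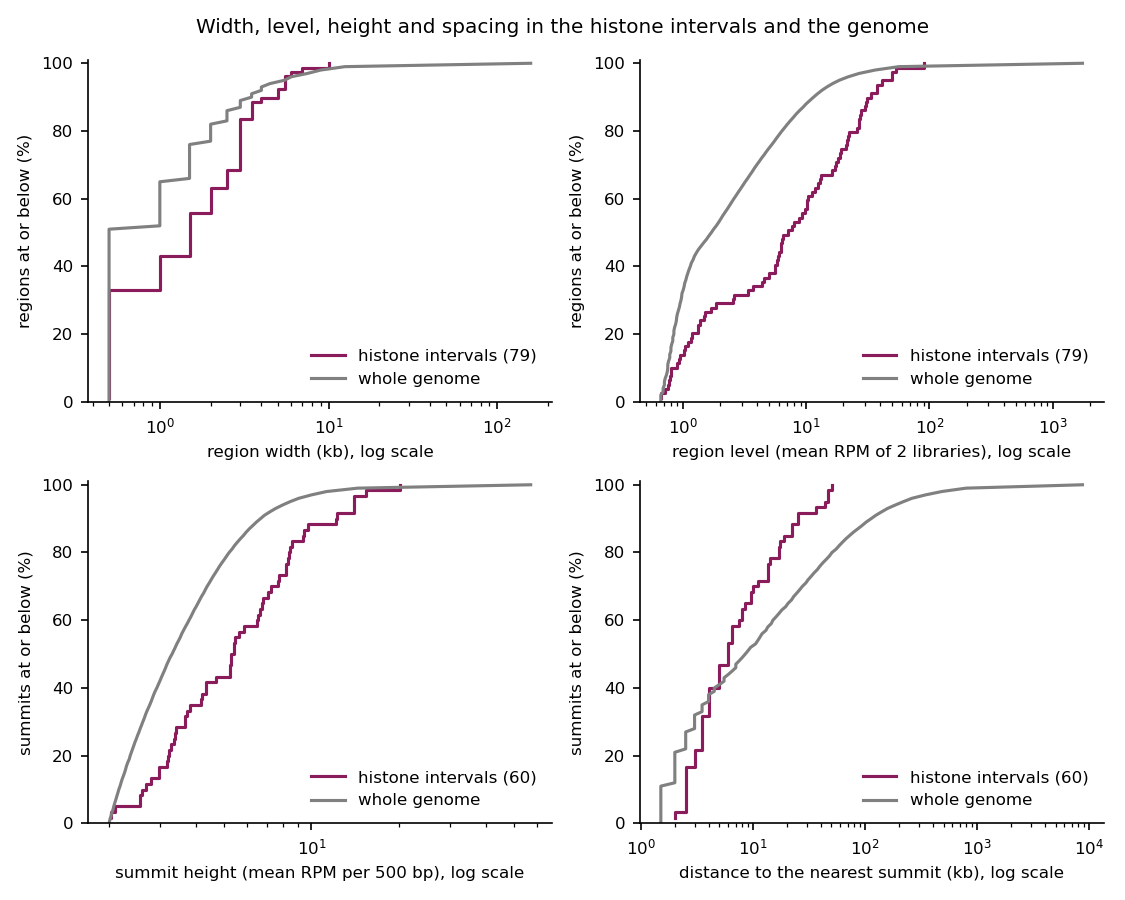
Cumulative share (%) of regions or summits at or below a given width, level, height or distance to the nearest summit, on log axes, for the histone stretches (79 regions, 60 summits) and for percentiles of the whole genome. The histone curves lie to the right for width, level and height, with medians of 1500 bp, 7.15 RPM and 5.33 RPM.

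Within the regions, summits were defined as called windows that averaged 2 RPM or more over the libraries and were the highest within 1 kb. There were 60, 40 on chromosome 13 and 20 on chromosome 3. A single summit stood in each of 49 regions, 4 regions held 2, and 25 held none, with a median width of 500 bp. The median summit reached 5.33 RPM per window, against 3.30 RPM for 13935 summits of the genome. At least 5 RPM was reached by 34 (56.7%), against 22.1%. The coefficient of variation of the heights was 51.4% on chromosome 13 and 79.0% on chromosome 3, with the genome's 73.5% between them.

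The tallest summit of the stretches was chr3:96355001-96355500, with 237 reads (13.5 RPM) in library 1 and 294 reads (26.9 RPM) in library 2, rank 66 in the genome. The next, chr3:96348501-96349000, lay 6.5 kb from it and held 183 reads (10.4 RPM) and 224 reads (20.5 RPM). On chromosome 13 the tallest was chr13:23705501-23706000, with 168 reads (9.57 RPM) and 203 reads (18.6 RPM). Close behind were chr13:23589001-23589500 with 10.6 and 17.4 RPM, and chr13:23747001-23747500 with 12.9 and 15.1 RPM. The libraries ordered these 3 differently, so which chromosome 13 summit is the tallest is not resolved.

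On chromosome 13 the summits stood close together. Over both stretches the median distance to the next summit was 9.75 kb, against 22.5 kb over the genome. It was 8.0 kb on chromosome 13 and 17.5 kb on chromosome 3. Distances of up to 10 kb made up 30 of 58 (51.7%), against 38.0% in the genome, but distances of up to 5 kb made up 18 (31.0%), against 29.2%. The shortest was 2.0 kb. To the nearest summit on either side the median was 5.0 kb on chromosome 13 and 9.0 kb on chromosome 3, against 8.5 kb over the genome. Distances of up to 5 kb to the next summit were 38.5% on chromosome 13 and 15.8% on chromosome 3, and of up to 10 kb 59.0% and 36.8%, so chromosome 3 did not exceed the genome in either.

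The peaks were about as wide as those of the genome near the top and lower 1 to 2 kb away. In library 1 the median summit was 400 bp wide where the level falls to 50% of its height, as in the genome. In library 2 it was 350 bp, against 450 bp. Relative to the summit, the mean level over the background at 0.5 to 1 kb was 37.9% (library 1) and 39.2% (library 2), against 32.4% and 39.5% in the genome. Farther out it fell to 13.6% at 1 to 2 kb in library 1 and to 15.8% in library 2, where the genome kept 24.3% and 32.6%. From 2 to 8 kb the histone profile did not fall further: it stood at 15.3% from 2 to 4 kb and 15.6% from 4 to 8 kb in library 1, and at 17.5% and 17% in library 2.

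**Figure D4:**
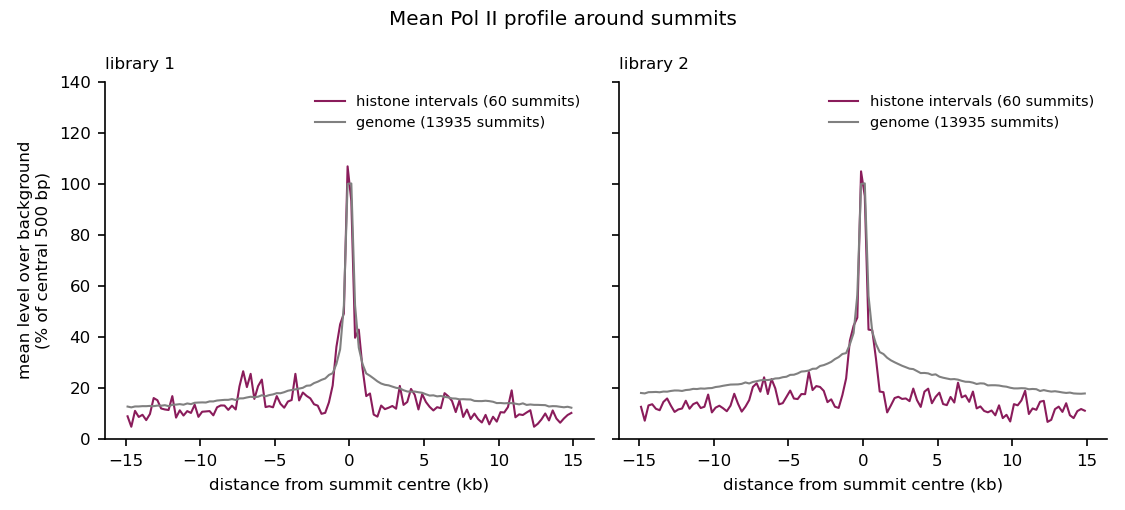
Mean level over background in percent of the central 500 bp, against distance in kb from the summit, for 60 histone summits and 13935 summits of the genome, in each library. At 1 to 2 kb the histone profile is at 13.6% and 15.8% of the summit and the genome profile at 24.3% and 32.6%.

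Reads of 1 placement often lay more to 1 side of a summit. An exact binomial test (two-sided) set the reads 0.5 to 2 kb to the left against those to the right, adjusted over all summits of the genome. At 29 of 60 summits (48.3%) the flanks were unequal to the same side in both libraries, against 22.2% of the genome's summits. The side was not shared: 15 leaned to higher and 14 to lower coordinates. Histone summits were also taller, which gives this test more reads, and the part of that in the difference was not tested. Only 1-placement reads were counted, so a flank over sequence that fits 2 sites loses reads. At chr13:23551501-23552000 the flanks held 86 reads left and 9 right in library 1. To its right, chr13:23552001-23553500 held 256 alignments of 2 placements beside 14 reads of 1 placement in library 1. How many unequal flanks arise in this way was not tested. Neighbouring summits stood as close as 2.0 kb, so a flank can also hold reads of the next peak. That part was not tested either.

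At the tallest summit, chr3:96355001-96355500, 114 reads lay to the left and 1 to the right in library 1, and 117 and 4 in library 2. At chr3:96348501-96349000 the left flank held 292 reads and the right 48 in library 1, and 389 and 42 in library 2. The chromosome 13 summit at chr13:23589001-23589500 leaned the other way, with 37 reads left and 71 right in library 1, and 28 and 146 in library 2. At chr13:23747001-23747500 the flanks held 197 and 88 reads in library 1 but 104 and 137 in library 2, so the libraries did not share a side there. Of the 10 tallest summits, 7 were unequal to the same side in both. Tall summits give the test more reads, and no share for genome summits of like height was computed.

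Reads with 2 placements changed the picture of both stretches. Such a read is listed at both of its sites, and a site may lie outside the stretches. They gave 10057 alignments in library 1 and 6241 in library 2, which is 27.0% and 21.8% of all alignments in the stretches, against 5.40% and 4.57% over the genome. The share was close on the 2 chromosomes in library 1, 26.9% on chromosome 13 and 27.5% on chromosome 3. In library 2 it was 23.2% and 18.9%.

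Windows were called on 2-placement alignments against 2 times the 1-placement background, adjusted over all 674477 windows with such an alignment. In the histone stretches 53 of 1999 windows (2.65%) were called in both libraries, against 0.205% over the genome. Of these, 34 were called on 1-placement reads in neither library. These windows, which only 2-placement alignments show, were 1.70% of the 1999, against 0.123% over the genome, and 22 of them held no 1-placement read at all. Another 15 were also called on 1-placement reads in both libraries and 4 in 1 library. Of all windows called in both by either kind of read, 9.91% were seen only by 2-placement alignments, against 0.659% over the genome.

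As signal, these 34 windows held 2971 alignments in library 1 and 2518 in library 2. Out of the reads and alignments in windows called in both libraries on 1-placement reads, plus these alignments, the share was 15.9% in library 1. In library 2 it was 13.8%, against 1.32% and 1.22% over the genome. This total left out the 4 windows called on 1-placement reads in 1 library only. It also left out the 22 and 28 reads of 1 placement in the 34 windows. With each alignment counted with a weight of 0.5, the shares were 9.18% and 7.74%. Windows called on 1-placement reads also held 2-placement alignments, 13.1% of their total in library 1 and 9.19% in library 2, against 1.83% and 1.56%. Most regions were little touched: in 3 of 79 regions the 2-placement alignments outnumbered the 1-placement reads in both libraries.

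The 2-placement signal was strong where it stood. The window chr3:96324501-96325000 held 348 alignments (19.8 RPM) in library 1 and 233 (21.3 RPM) in library 2, beside 1 read of 1 placement in each. Its mean, 20.6 ± 1.04 RPM (SD, n = 2), was about that of the tallest 1-placement summit, 20.2 RPM, though it counts reads that may come from either copy. On chromosome 13, chr13:21816501-21817000 held 183 alignments (10.4 RPM) and 198 (18.1 RPM), with no 1-placement read in either library. A count of 0 reads allows up to 3 reads in a library only where the sequence can give 1-placement reads. Reads of this sequence could not count there if they fit 2 sites, and the 0 is then no measure of Pol II.

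The next 3 windows of this kind lay close by. chr13:21842001-21842500 held 150 and 185 alignments, chr13:21817501-21818000 held 155 and 160, and chr13:21819001-21819500 held 134 and 164. All 4 chromosome 13 windows were higher in RPM in library 2, while the chromosome 3 window was about equal in the libraries. The window chr13:21842001-21842500 lies in the mirrored copy, described below, of the tract that holds the other 3. The same reads can be listed in both tracts, so the 4 windows are not independent.

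The 53 called windows formed 21 tracts, 6 on chromosome 3 and 15 on chromosome 13. They held 51.6% of the 2-placement alignments of the stretches in library 1 and 66.5% in library 2. The partner of each tract was sought as a place where the other alignments of the same reads lie, at 1 constant offset, or mirrored, with positions adding to 1 constant on opposite strands. A partner was accepted when at least 50% of the starts were matched with equal read numbers in both libraries. It was found for 15 of the 21 tracts, and these held 94.8% and 96.3% of the tract alignments and 33 of the 34 windows that only 2-placement alignments show.

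Most partners lay nearby, mirrored. On chromosome 3, chr3:96323501-96326000 held 832 alignments in library 1 and 545 in library 2. Its mirror partner chr3:96330501-96333000, 7.0 kb away between midpoints, held 833 and 546. Of the starts, 77.4% and 71.6% were matched. A second chromosome 3 pair, chr3:96444501-96445500 and chr3:96459501-96460500, lay 15 kb apart with 122 and 121 alignments in library 1 and 69 and 70 in library 2. None of these 4 windows held a 1-placement read.

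The largest mirrored pair was on chromosome 13. chr13:21816001-21820000 held 977 alignments in library 1 and 944 in library 2, beside 22 and 14 reads of 1 placement over 4.0 kb. Its partner chr13:21838501-21843000, 22.75 kb away between midpoints, held 1063 and 1050, and 93.1% and 94.8% of the starts of the first were matched. The same mirror centre also paired chr13:21812501-21813500 with chr13:21845501-21846000, at 32.75 kb, where every start of the first tract was matched in both libraries. Smaller mirrored pairs were chr13:21742001-21743000 with chr13:21757501-21758500, and chr13:23552001-23553500 with chr13:23568501-23569500. In the first of these the tracts held 133 and 120 alignments in library 1 and 76 and 60 in library 2, and in the second 256 and 244 in library 1 and 200 and 182 in library 2. Because each read is listed at both copies, the equal numbers come from the listing and do not show that both copies are bound.

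**Figure D5:**
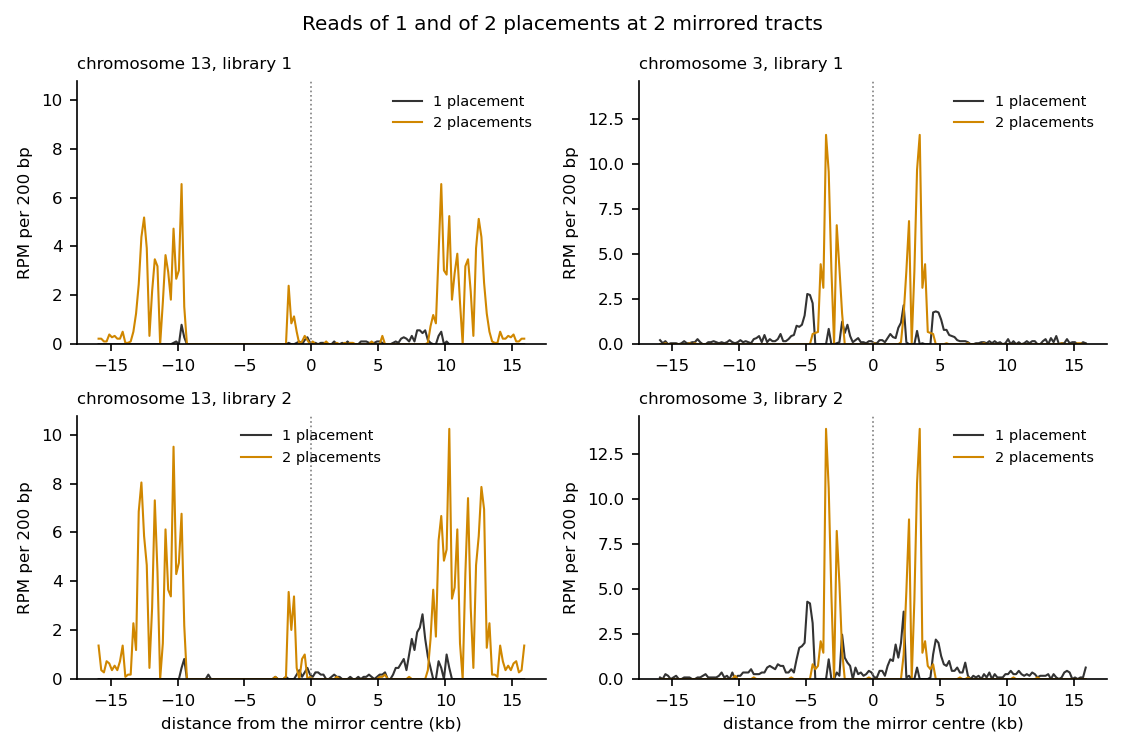
RPM per 200 bp bin of 1-placement reads and 2-placement alignments, against distance in kb from the mirror centre (dotted line) of the largest pair on chromosome 13 and of the tallest pair on chromosome 3, in each library. The tallest 2-placement peaks stand at like distances on both sides, where 1-placement reads are few. On chromosome 13 a smaller peak left of the centre has no counterpart at the same distance on the right. Its partner, mirrored about another centre, lies in the right tract of the pair, with 60.5% (library 1) and 74.0% (library 2) of starts matched.

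Reads that the copies do not share stood beside some tracts. In the chromosome 3 pair, 124 reads of 1 placement in library 1 and 117 in library 2 lay in the first tract, and 98 and 81 in its partner. Each of these tracts held 3 windows called on 1-placement reads in both libraries. In the second tract of the large chromosome 13 pair, which held 17 and 29 reads of 1 placement, no window was called in both libraries. There, chr13:21839001-21839500 (10 and 8 reads) and chr13:21839501-21840000 (2 and 16 reads) were called in library 2 only. The first tract of that pair, with 22 and 14 reads of 1 placement, held 1 window called in both libraries. So in the chromosome 3 pair both tracts held windows called in both libraries on reads of their own. In the large chromosome 13 pair 1 tract did, and the other held windows called in library 2 only.

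The libraries were compared window by window by an exact conditional binomial test, with the libraries scaled by their reads in jointly called windows, and adjusted over 410963 windows of the genome. This compares these libraries, and not conditions. In the histone stretches 7 of 627 tested windows differed. Library 1 was higher in 4 (0.55% of windows over the genome were) and library 2 in 3 (0.567% over the genome). Scaled by all collapsed reads instead, no window was higher in library 1 and 92 were higher in library 2 past the threshold. The genome's calls moved the same way under this scaling, with 27254 for library 2 against 316 for library 1. The 7 windows run the same way in RPM as in the first scaling, but the 4 calls of library 1 were lost.

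The largest difference was at chr3:96359001-96359500, with 5 reads (0.285 RPM) in library 1 and 57 reads (5.21 RPM) in library 2. After scaling, library 2 was 11.1 times higher (95% interval 4.50 to 35.6, adjusted p = 1.2e-08 by the exact binomial test). It lay 4.0 kb from the tallest summit of the stretch and was not called in both libraries. The other 2 windows higher in library 2 were chr13:23754001-23754500, with 67 and 140 reads (2.04 times, 1.52 to 2.77), and chr13:23764001-23764500, with 47 and 102 reads (2.12 times, 1.49 to 3.06).

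Among the windows higher in library 1 after scaling, chr13:23629501-23630000 held 94 reads in library 1 and 38 in library 2 (2.53 times, 1.72 to 3.79). At chr13:21787501-21788000 there were 92 and 43 reads (2.19 times, 1.51 to 3.22), and at chr13:23746501-23747000 109 and 57 (1.96 times, 1.41 to 2.75). The last lies in the highest region, as does the window at chr13:23754001-23754500 that was higher in library 2, so the 2 libraries spread their reads over that region differently. In that region 8.40% of alignments in library 1 and 3.65% in library 2 had 2 placements.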

How the data were processed

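Pol II ChIP-seq of 2 libraries of mouse embryonic fibroblasts was used, with no input library analysed. Chromatin was sonicated to about 500 bp, and the precipitated DNA was amplified by 18 cycles of ligation-mediated PCR, per the labels' protocols. Reads were aligned with Bowtie to mm8 with options -e 70, -k 2, -m 2, -n 2 and -l 36, per the file headers (version: not given in the sources used here). In unit terms, the deposited files hold no level, score or other scaled value, only signed left-most read offsets, in sections for 1 and 2 placements. Reads fitting more than 2 sites are lost, so repeated sequence is under-represented.

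Reads were taken as 36 bases, collapsed to 1 per start and strand, shifted 60 bp and counted in 500 bp windows, with RPM per 1000000 collapsed 1-placement reads for both kinds. Background was the mean over windows that remained once called ones had been removed, in 3 rounds. The tests were checked on simulated Poisson counts, with an even background for the calls. The tests assume the same, so an uneven background was not covered by this check. Named regions are the 10 with the highest mean RPM, the 5 widest (ties included), the 5 highest windows that only 2-placement alignments show and up to 3 windows differing each way; bins, tracts, mirrored pairs and summits were named as illustrations after their values were seen, and the partner search and the weight of 0.5 for 2-placement alignments were added then. The members and lists were chosen with earlier results of these data known. Alternatives for threshold, repeated starts, background, grid, joining, summit rule, flanks, scaling and left-out libraries were computed. Gene names and promoters come from RefSeq (GRCm38.p6), and its coordinates were not used for any mm8 position. Python 3.11.15, NumPy 2.4.6, SciPy 1.17.1, pandas 2.3.3 and matplotlib 3.10.9 were used.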

Additional observations from a re-analysis of the deposited data

How the results depend on the processing

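In the histone stretches, the number of windows called in both libraries was 156 with the local background (the larger of the genome background and the mean of 50 kb), against 305. Called on 1 library alone it was 318 to 614. The share called stayed above that of the genome under each alternative, by 1.54 to 5.73 times. Median region width was 2000 bp on a grid shifted by 250 bp and when windows were joined across at most 4 windows, 1000 bp when only adjacent windows were joined and with the local background, and 1500 to 2000 bp with 1 library left out. Regions numbered 61 to 100. Summits of at least 4 RPM numbered 39. Median spacing was 6.25 to 9.00 kb on 1 library alone. At a threshold of 0.0001, 18 summits had unequal flanks, and with flanks of 1 to 5 kb 35 had, or 58.3% against 42.1% over the genome. Windows that only 2-placement alignments show numbered 38 to 52 on 1 library alone. Windows that differ between the libraries numbered 19 with all reads kept, 92 (all higher in library 2) when scaled by all collapsed reads, and 1 at a threshold of 0.0001. With all collapsed reads as the scale, the genome's calls also went mostly to library 2, 27254 against 316 for library 1. The scaling thus changes which windows pass, while the 7 windows keep their direction in RPM. The cause was not tested. No paired analysis was possible because there is 1 group. Library 1 has more reads but also the higher background in RPM, and weak peaks near the smallest called counts may be missed in either library.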
